A study of Mus musculus with 7 samples.

Results

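Leukocyte microRNAs in the kidney are represented here by 8 of the 611 mouse microRNAs on the arrays: mmu-miR-142-3p, mmu-miR-142-5p, mmu-miR-223, mmu-miR-155, mmu-miR-146a, mmu-miR-146b, mmu-miR-150 and mmu-miR-342-3p, taken by their names in the scanner files. They were read in whole kidneys of male mice labelled 4 weeks old (3.5 to 4 weeks per the extraction protocol). The wild-type group held 4 mice labelled mgb+/+ (mice 1 to 4), and the megabladder group held 3 mice labelled mgb-/- (mice 2 to 4), with 1 Agilent 1-colour array per mouse and no treatment in the labels. A further mutant kidney is mentioned in the description of the series but was not analysed here. The megabladder mouse is a mutant whose bladder lacks normal smooth muscle, so that urine flow is obstructed and the kidneys dilate. Its labels call the mutant kidneys obstructed, and the comparison asks which kidney microRNAs differ in this model of obstructive kidney disease.

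MicroRNAs are short RNAs that guide Argonaute proteins to messenger RNAs, mostly through their seed, bases 2 to 8 from the 5′ end. The 8 are known for high levels in blood cells: miR-142 is found in nearly all haematopoietic cells, miR-223 in neutrophils and monocytes, miR-150 in mature lymphocytes, and miR-342-3p in several leukocyte types. MiR-155 and the miR-146 pair are induced in immune cells by inflammatory signals, and miR-155 favours such signalling while miR-146 restrains it. In whole kidney they can come from resident macrophages, from infiltrating cells or from blood left in the vessels, and some are made at a low level by other cells. In such bulk samples, fewer cells of a type and less RNA per cell cannot be told apart.

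The mature sequences show which members share a seed, printed in capitals, and which are close enough in sequence to be hard to tell apart on an array. They are RefSeq's, from its GRCm38.p6 table, 5′ to 3′, and 7 of the 8 names matched; RefSeq calls both miR-142 arms miR-142a.
mmu-miR-142-3p: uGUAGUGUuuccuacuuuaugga
mmu-miR-142-5p: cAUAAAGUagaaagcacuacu
mmu-miR-223: uGUCAGUUugucaaauacccca
mmu-miR-155: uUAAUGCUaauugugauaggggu
mmu-miR-146a: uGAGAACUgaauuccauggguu
mmu-miR-146b: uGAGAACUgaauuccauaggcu
mmu-miR-342-3p: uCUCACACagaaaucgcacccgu

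The 7 sequences hold 6 distinct seeds, and the only shared one, GAGAACU, is that of mmu-miR-146a and mmu-miR-146b. These 2 are identical at 20 of 22 bases and differ by G18A and U21C, counted from the 5′ end with the miR-146a base first. The remaining seeds were each found in a single mature name of the table. By the same annotation the hairpin of miR-342 overlaps the protein-coding gene Evl, that of miR-155 overlaps its host transcript Mir155hg, and those of miR-223 and miR-146b overlap the long noncoding RNAs F630028O10Rik and Gm36493. The arrays read none of these host transcripts.

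In all, 4 members were well above background on all 7 arrays: mmu-miR-142-3p, mmu-miR-223, mmu-miR-146a and mmu-miR-342-3p. A microRNA counted as such on an array when at least 50% of the spots of any of its probes carried the scanner software's flag for a signal well above background. mmu-miR-155 passed on all 4 wild-type arrays and on 2 of 3 megabladder arrays, missing in megabladder mouse 3. mmu-miR-142-5p passed in wild-type mice 3 and 4 only, mmu-miR-150 in wild-type mouse 3 only, and mmu-miR-146b on no array. Per array, 5, 5, 7 and 6 of the 8 were found in wild-type mice 1 to 4, and 5, 4 and 5 in megabladder mice 2 to 4. Over all mouse microRNAs the counts were 206, 204, 206 and 190 in the wild-type mice and 210, 196 and 206 in the megabladder mice.

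**Figure D1:**
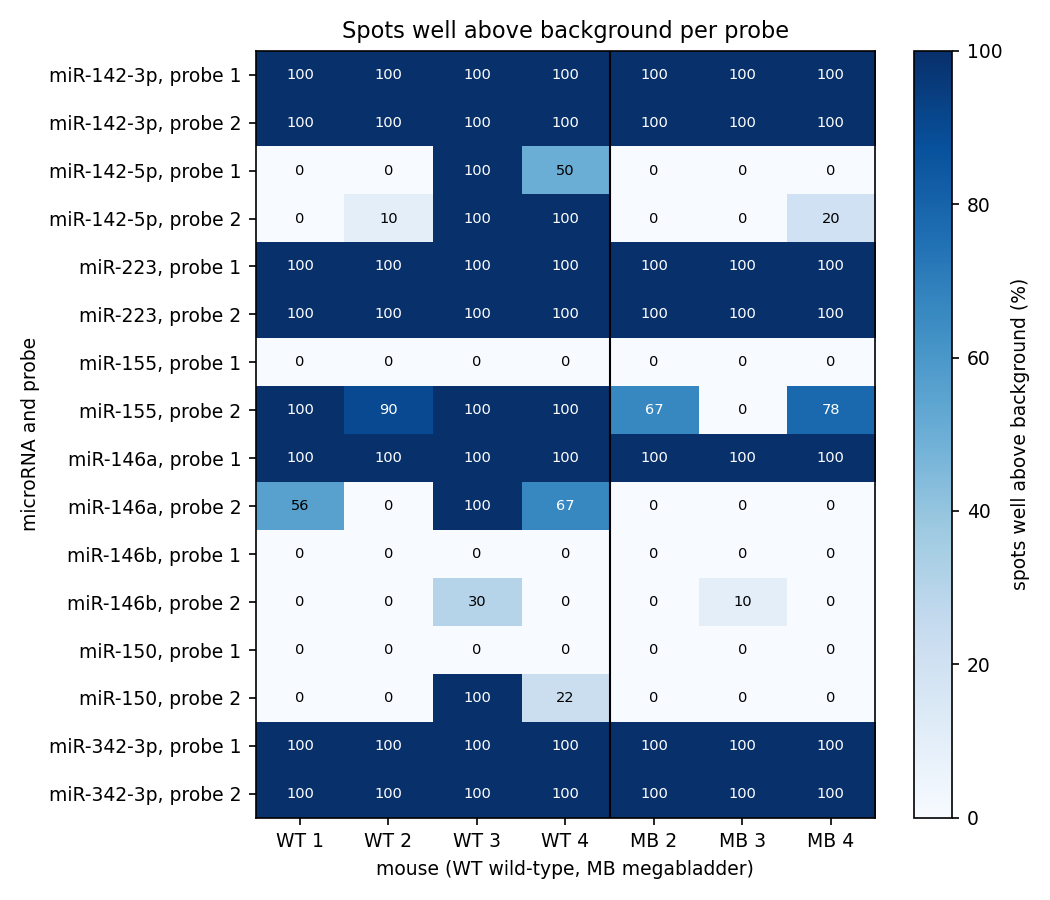
Percentage of spots flagged well above background for each of the 16 probes of the 8 leukocyte microRNAs (rows, numbered as probe 1 and 2 of each microRNA) in the 4 wild-type (WT) and 3 megabladder (MB) mice (columns). miR-142-3p, miR-223 and miR-342-3p are at 100% with both probes on all arrays, while miR-146b does not exceed 30%.

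The arrays of the genotypes were not equally bright. The 75th percentile over the 292 probes found on all arrays was 391.3, 440.1, 495.8 and 348.1 scanner units in wild-type mice 1 to 4 and 269.0, 333.4 and 223.5 units in megabladder mice 2 to 4. The genotypes did not overlap, and the log2 difference of -0.61 had p = 0.0286 (two-sided exact permutation test over 35 splits, the smallest p it can give). The position on the slide cannot be told apart from the genotype, because each genotype filled a slide row of its own. Levels below are scaled to that percentile. Wild-type mice 3 and 4 also stood apart from the other 5 arrays along the first principal component (scores of 7.22 and 6.92 against -4.10 to -0.99). As checks of the tissue, 5 of 6 kidney tubule microRNAs were found on all arrays (miR-215 on none), and the neuronal miR-124 and the muscle miR-133a were found on none. The liver's miR-122, the islets' miR-375 and the muscle's miR-1 were found on 1, 1 and 2 arrays.

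None of the 5 members that could be tested differed between the genotypes past the threshold. Testing required a probe that passed the background flag on 3 or more arrays, and the test was limma's moderated fit over 213 microRNAs with Benjamini-Hochberg adjustment. That fit called 7 microRNAs (3.29% of those tested) at an adjusted p under 0.05, and 0 of the 5 members. At an unadjusted p under 0.05 it called 49 (23%), again with 0 of the 5. Under other settings the members passing an unadjusted limma p under 0.05 are given beside the count over all microRNAs tested. They numbered 3 (percentile over all probes, beside 96 of 213), 2 (quantiles, 45 of 213) and 2 (the authors' deposited table, 27 of 191). With normexp background 1 passed (113 of 213), with no scaling 4 (105 of 213) and without wild-type mouse 2 1 (46 of 213). The levels of the genotypes did not overlap for 47 of 213 microRNAs (22.1%), and overlapped for all 5 members. The members' median log2 difference, megabladder minus wild-type, was -0.15, with 3 below 0 and 2 above, beside 0.09 over all microRNAs tested.

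**Figure D2:**
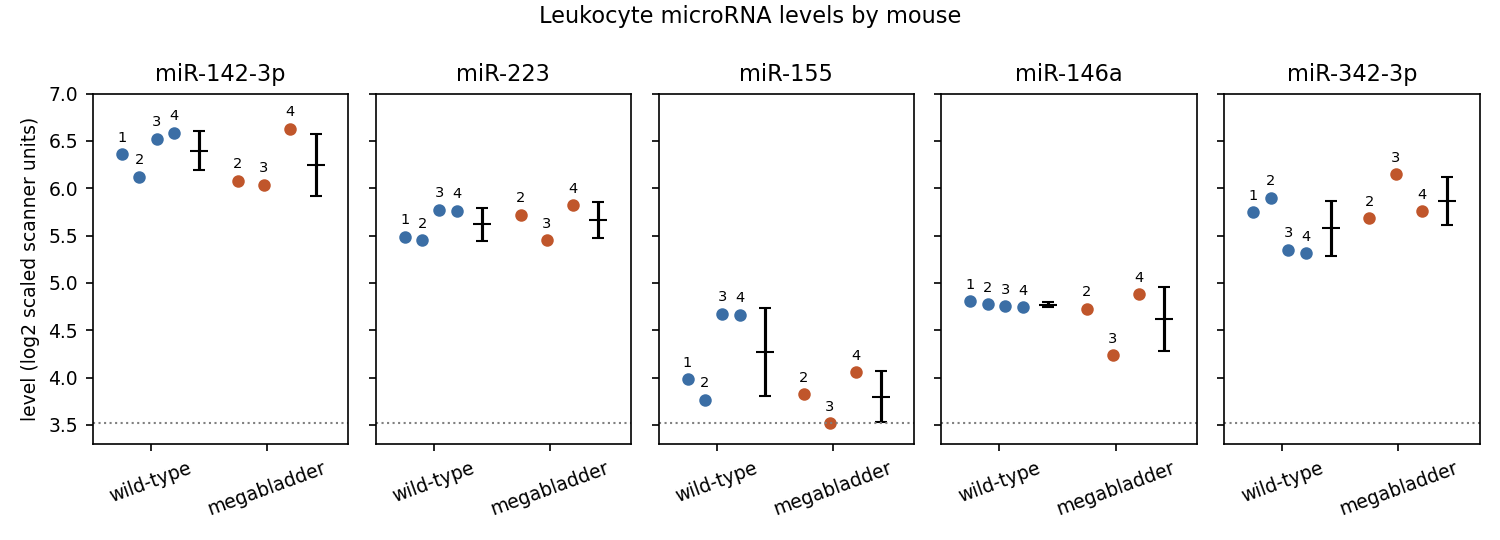
Level (log2 of the scaled scanner signal) of the 5 leukocyte microRNAs tested in each mouse, with the mouse number above its point and the mean ± SD (n = 4 and 3) to the right. The dotted line is the floor at 3.52; the genotypes overlap in every panel.

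mmu-miR-142-3p, an arm of the miR-142 hairpin, had log2 levels of 6.36, 6.12, 6.52 and 6.58 in wild-type mice 1 to 4. In megabladder mice 2 to 4 the levels were 6.08, 6.04 and 6.63. Megabladder mice 2 and 3 were lower than every wild-type mouse, and megabladder mouse 4 was higher than every one. The means were 6.40 ± 0.21 (SD, n = 4) and 6.25 ± 0.33 (SD, n = 3), a difference of -0.15 (95% interval -0.58 to 0.28, limma adjusted p = 0.728). Between arrays in the same slide column the differences were -0.04, -0.48 and 0.04 in columns 2, 3 and 4. Without wild-type mice 3 and 4 the difference was 0.0093 (limma adjusted p = 0.994), so its sign rests on those arrays. Leaving out single mice gave -0.34 (without megabladder mouse 4) to -0.04 (without megabladder mouse 3). The brighter of its probes read 119.9, 104.6, 135.3 and 139.5 scaled units in the wild-type mice and 96.2, 96.3 and 145.4 in the megabladder mice, and the other probe gave the same direction.

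mmu-miR-142-5p, the other arm of the same hairpin, was at the edge of detection. Its probe 2 read 8.80, 7.78, 11.9 and 11.8 scaled units in wild-type mice 1 to 4 and 7.38, 6.79 and 13.3 in megabladder mice 2 to 4. The highest reading of probe 2 was thus that of megabladder mouse 4, where 20% of the spots passed, while wild-type mouse 3 passed with 100% of its spots at a lower scaled signal. Probe 1 was instead highest in wild-type mouse 3, at 11.4 units with 100% of its spots passing, against 10.8 in megabladder mouse 4. The lowest scaled signal that passed for any probe was 6.94 to 10.4 units on the wild-type arrays and 12.0 to 13.8 on the megabladder arrays. The same scaled signal could therefore pass on a wild-type array and not on a megabladder array. No fold between the genotypes is given, since the bound on it is under 1.

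mmu-miR-223, the granulocyte and monocyte microRNA, had log2 levels of 5.49, 5.45, 5.77 and 5.76 in the wild-type mice. The megabladder levels were 5.72, 5.45 and 5.82. High and low mice occurred in both genotypes, with wild-type mouse 2 and megabladder mouse 3 at the bottom. The means were 5.62 ± 0.17 (SD, n = 4) and 5.66 ± 0.19 (SD, n = 3), and the difference was 0.04 (95% interval -0.28 to 0.37, limma adjusted p = 0.923), the narrowest interval of the 5. Its probes differed in sign, at 0.09 for the dimmer and -0.0024 for the brighter, and the slide columns gave 0.27, -0.32 and 0.06. The sign of this difference also turned under 3 other scalings and with no scaling.

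mmu-miR-342-3p, whose hairpin overlaps Evl, was the member with the highest difference. Its log2 levels were 5.75, 5.90, 5.35 and 5.31 in wild-type mice 1 to 4. In the megabladder mice they were 5.68, 6.15 and 5.76. Wild-type mice 3 and 4 were the lowest, wild-type mice 1 and 2 lay among the megabladder mice, and megabladder mouse 3 was the highest. The means were 5.58 ± 0.29 (SD, n = 4) and 5.86 ± 0.25 (SD, n = 3), a difference of 0.28 (95% interval -0.16 to 0.73, limma adjusted p = 0.470). The slide columns gave -0.22, 0.80 and 0.44. Without wild-type mice 3 and 4 the difference was 0.04 (limma adjusted p = 0.986), and without megabladder mouse 3 it was 0.14 (limma adjusted p = 0.700).

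mmu-miR-150, the lymphocyte microRNA, was not well above background in any megabladder mouse and passed in 1 wild-type mouse. Its probe 2 read 8.11, 8.75, 9.46 and 9.06 scaled units in wild-type mice 1 to 4 and 7.35, 6.07 and 7.41 in megabladder mice 2 to 4. All 7 readings were under the floor of 11.5 units, and those of the genotypes did not overlap. Among the 1355 mouse probes too dim to be kept, 127 (9.37%) had scaled megabladder readings all below the wild-type ones, and of the members' 7 such probes this was 1. With no scaling the readings were 9.12, 11.1, 13.5 and 9.06 units against 5.68, 5.82 and 4.76. In the unscaled signal 60 of the 1355 dim probes (4.43%) did not overlap in that direction, and 4 of the members' 7, both probes of mmu-miR-150 and both of mmu-miR-142-5p, so this is not particular to mmu-miR-150. The software's own detection flag per microRNA, which is set on each array alone, was positive for mmu-miR-150 in all 4 wild-type mice and in 0 of 3 megabladder mice. It was the only 1 of 611 mouse microRNAs (0.164%) with that pattern, and 0 had the reverse. Of the 611, 346 carried the flag on no array and 190 on all arrays, so few could show such a pattern. The flag was positive for mmu-miR-142-5p in 4 wild-type and 1 megabladder mice, for mmu-miR-155 in 4 and 2, and for mmu-miR-146b in 1 and 1. The pattern of mmu-miR-150 was noticed after the values were seen, the megabladder arrays were the dimmer ones, and the part of that in the flag was not tested. The bound on the fold was under 1, so none is given.

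mmu-miR-155, induced in activated leukocytes, had the lowest difference and the widest interval of the 5. It was read by probe 2 only, since probe 1 passed on no array. The log2 levels were 3.98, 3.77, 4.67 and 4.66 in wild-type mice 1 to 4 and 3.83, 3.52 and 4.06 in megabladder mice 2 to 4. Megabladder mouse 3 was at the floor of 3.52, so its level is a bound, and wild-type mice 3 and 4 stood above the other 5 mice. The means were 4.27 ± 0.47 (SD, n = 4) and 3.80 ± 0.27 (SD, n = 3), a difference of -0.47 (95% interval -1.09 to 0.15, limma adjusted p = 0.388). Because of that floored level, this difference and its interval depend on the floor. With a floor of 1 unit the difference was -0.66 (limma adjusted p = 0.352), with total gene signal -0.85 and with normexp background 0.20. The slide columns gave 0.06, -1.15 and -0.60. Without wild-type mice 3 and 4 the difference was -0.07 (limma adjusted p = 0.963), and most of its size thus rests on those arrays. In the authors' deposited table the values were 29, 29, 47 and 41 against 27, 20 and 27 units, where 20 is the table's floor.

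mmu-miR-146a, a feedback inhibitor of Toll-like receptor signalling, had log2 levels of 4.81, 4.78, 4.75 and 4.75 in the wild-type mice. In the megabladder mice they were 4.73, 4.24 and 4.88. The wild-type mice lay close together, at 4.77 ± 0.03 (SD, n = 4), and the megabladder mean of 4.62 ± 0.34 (SD, n = 3) was drawn down by mouse 3. The difference was -0.15 (95% interval -0.52 to 0.21, limma adjusted p = 0.655), and without megabladder mouse 3 it was 0.034 (limma adjusted p = 0.815). The level averages 2 probes, of which probe 2 was at the floor on all arrays but that of megabladder mouse 4. Averaging in probe 2 narrows both the spread and the difference. Probe 2 was kept through 3 wild-type arrays and passed on 0 megabladder arrays. Probe 1 alone read 68.4, 65.5, 63.6 and 62.8 scaled units against 61.2, 31.1 and 72.2, and gave -0.33 (limma adjusted p = 0.560). The slide columns gave -0.05, -0.52 and 0.14.

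mmu-miR-146b, which shares the seed of mmu-miR-146a and all but the 2 bases named above, passed on no array. Its probe 2 read 6.23, 5.95, 5.65 and 5.53 scaled units in the wild-type mice and 7.63, 11.8 and 5.02 in the megabladder mice. Of that probe's spots 30% passed in wild-type mouse 3, 10% in megabladder mouse 3 and none in the other mice, so its readings are given with no order.

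Across the mice, 4 of the 5 tested members lay on the same side of their own mean in wild-type mice 3 and 4 and in megabladder mouse 3, and mmu-miR-342-3p lay on the opposite side. Centred on their own mean over the 7 arrays, mmu-miR-142-3p and mmu-miR-223 were the most alike pair, with a root-mean-square difference of 0.16 log2 units. The pairs of mmu-miR-146a with mmu-miR-223 (0.18) and with mmu-miR-142-3p (0.20) and the pair of mmu-miR-142-3p and mmu-miR-155 (0.26) followed. As a scale, the median such difference to all microRNAs tested was 0.31 for mmu-miR-142-3p, 0.25 for mmu-miR-223, 0.49 for mmu-miR-155, 0.27 for mmu-miR-146a and 0.32 for mmu-miR-342-3p. mmu-miR-155 and mmu-miR-342-3p were the least alike pair, at 0.68. In wild-type mice 3 and 4 mmu-miR-155 was 0.60 and 0.59 above its mean while mmu-miR-342-3p was 0.35 and 0.39 below its own (-0.35 and -0.39). In megabladder mouse 3 the order of these 2 turned: mmu-miR-155 was at -0.55, mmu-miR-146a at -0.47, mmu-miR-142-3p at -0.29, mmu-miR-223 at -0.19 and mmu-miR-342-3p at 0.45. The mmu-miR-155 level in that mouse is a bound at the floor. The mmu-miR-146a level averages in a probe at the floor, which narrows its deviations and enters its likeness values. The order of mmu-miR-155 and mmu-miR-146a in that mouse is therefore not settled. The microRNAs whose centred levels lay nearest to mmu-miR-342-3p over the 7 arrays were miR-130a (0.05) and miR-322 (0.06). Those nearest to mmu-miR-142-3p were let-7b and miR-423-5p (both 0.14), to mmu-miR-223 miR-200a* and miR-15a (both 0.07), to mmu-miR-146a miR-98 and miR-455* (both 0.07), and to mmu-miR-155 miR-193 (0.15) and miR-709 (0.18).

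**Figure D3:**
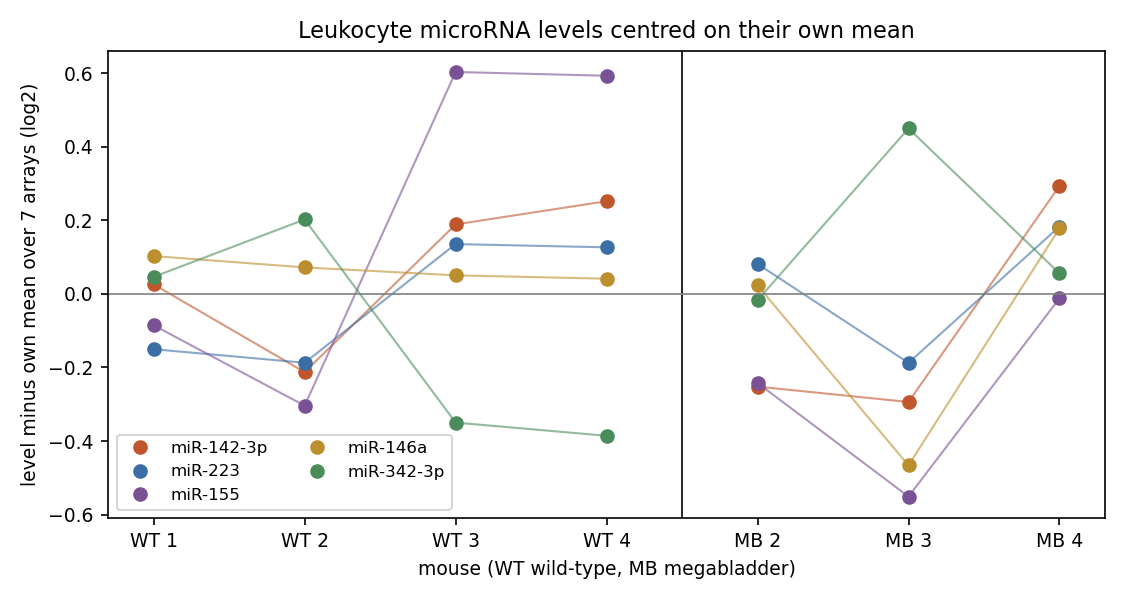
Level of each tested leukocyte microRNA minus its own mean over the 7 arrays (log2), by mouse (WT wild-type, MB megabladder); lines join mice of a genotype only to guide the eye, and mice have no order. miR-155 is high and miR-342-3p low in wild-type mice 3 and 4, and megabladder mouse 3 is low for miR-155 and miR-146a and high for miR-342-3p.

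Related microRNAs gave no calls either. Of 8 other microRNAs linked to leukocytes, 7 were tested (not miR-511), 0 rose and 0 fell, 0 passed an unadjusted p under 0.05, and the median difference was 0.21 beside 0.09 over all microRNAs. All 7 differences were above 0, the highest being miR-652 at 0.35 (95% interval -0.03 to 0.72, limma adjusted p = 0.247). The 7 include miR-181a, miR-181b, miR-181c and miR-181d, and the share above 0 over all microRNAs is not given here. Of 10 inflammation-linked microRNAs, 6 were tested with 0 calls in either direction and a median of 0.05, and among them miR-21, known for its rise in injured kidney, read 11.01 ± 0.27 (SD, n = 4) against 11.09 ± 0.05 (SD, n = 3) log2 units. The other strand of that hairpin, miR-21*, is not on the list and differed by 0.95 (95% interval 0.42 to 1.49, limma adjusted p = 0.0551). Its wild-type levels were at or near the floor. Of the opposite strands of the members' hairpins, 3 of 6 were on the array and none was found on any array.

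Erythroid microRNAs, as a measure of blood left in the tissue, varied between mice. All 3 were tested, with 0 calls and a median difference of 0.11. In megabladder mouse 4 miR-451 was at 11.79, miR-144 at 6.91 and miR-486 at 6.16, each the highest of the 7 mice, and mmu-miR-142-3p, mmu-miR-223 and mmu-miR-146a were also highest there. The other 6 mice ran from 10.88 to 11.40 for miR-451, from 5.54 to 6.45 for miR-144 and from 4.91 to 5.36 for miR-486. Megabladder mouse 4 was also highest for microRNAs of neither list, such as miR-103, miR-494 and miR-1224. The share over all microRNAs tested is not given here, and that array was the dimmest before scaling. The part of blood in the members' levels was not tested. In megabladder mouse 3 the tubule microRNAs miR-192 and miR-194 were lowest of the 7 mice, at 9.51 and 7.93, beside the low mmu-miR-155 and mmu-miR-146a. The tubule microRNA miR-204 was instead highest of the 7 mice there, at 5.79. The tubule microRNAs miR-30a (10.35) and miR-30c (9.64) were neither lowest nor highest in that mouse. MicroRNAs outside the tubule list, such as let-7a, miR-107 and miR-126-3p, were also lowest in megabladder mouse 3, so this is not particular to tubule microRNAs. The part of tubule content in the members' values was not tested. The 5 tubule microRNAs tested gave 0 calls and a median of 0.0007.

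**Figure D4:**
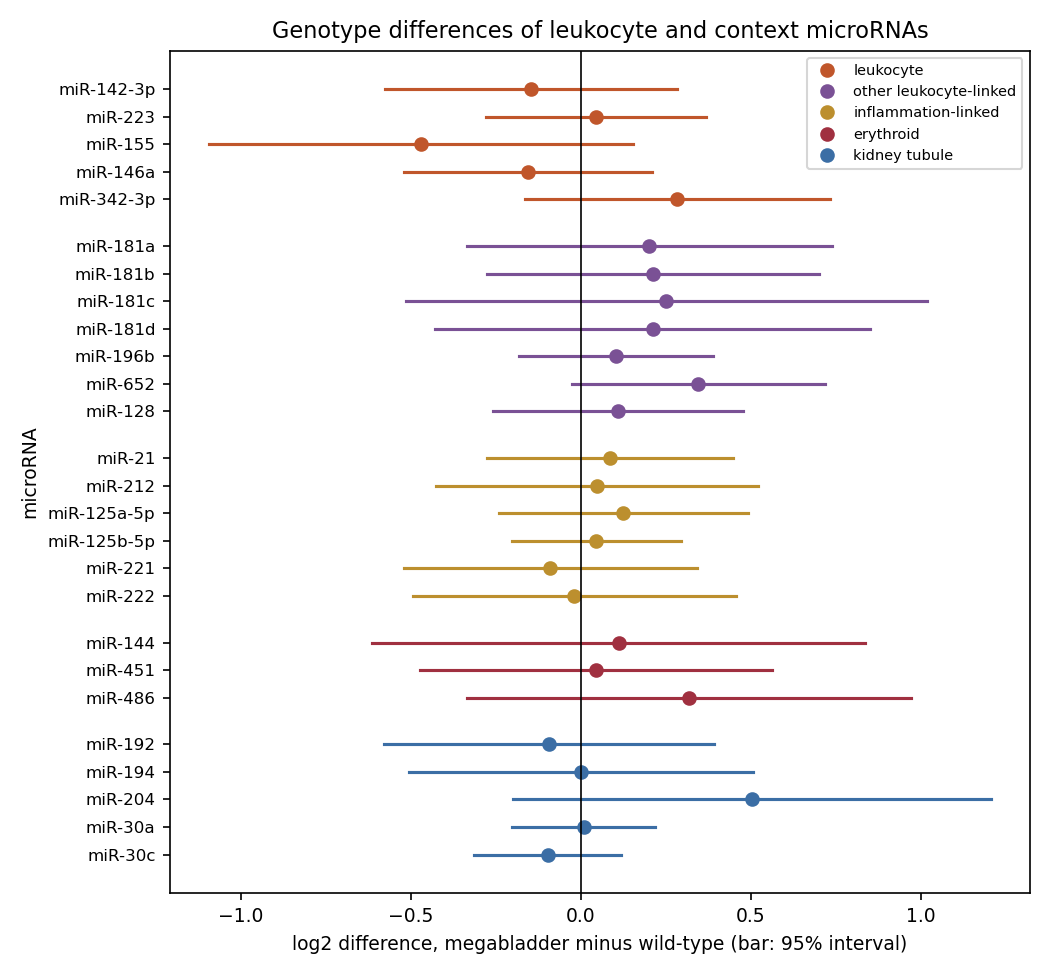
Log2 difference, megabladder minus wild-type (points), with its 95% interval (bars), for the 5 leukocyte microRNAs tested and the microRNAs of 4 context lists, by colour. Every interval crosses 0; among the leukocyte microRNAs the points run from -0.47 (miR-155) to 0.28 (miR-342-3p).

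The number of members called depended on how the arrays were scaled. With no scaling, 4 of the 5 members passed, all lower in megabladder kidneys: mmu-miR-142-3p at -0.76 (limma adjusted p = 0.0305), mmu-miR-155 at -1.09 (0.0330), mmu-miR-146a at -0.57 (0.0397) and mmu-miR-223 at -0.57 (0.0483). In that setting 68 of all 213 microRNAs (31.9%) were called lower, 90 (42.3%) did not overlap between the genotypes, as 4 of the 5 members did not, and the median of all microRNAs was itself -0.50. Taken relative to the median of all microRNAs, the 4 scalings and the unscaled signal gave -0.26 to -0.20 for mmu-miR-142-3p, -0.31 to -0.07 for mmu-miR-146a, -0.80 to -0.50 for mmu-miR-155, -0.16 to -0.04 for mmu-miR-223 and 0.07 to 0.20 for mmu-miR-342-3p. A single factor per array, used in all these scalings but the quantiles, shifts all microRNAs above the floor alike. For members above the floor such relative values are nearly fixed by construction and are no sign of stability. mmu-miR-146a, with a probe at the floor, ran from -0.24 to -0.07 without the quantiles. The quantiles gave an end of each range: -0.20, -0.31, -0.80, -0.16 and 0.07, in the order above. Without wild-type mice 3 and 4 the relative value was 0.13 for mmu-miR-223 and -0.02 for mmu-miR-342-3p, on the other side of the median from that with all arrays. The sign of the plain difference turned between scalings for mmu-miR-223 and mmu-miR-342-3p.

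**Figure D5:**
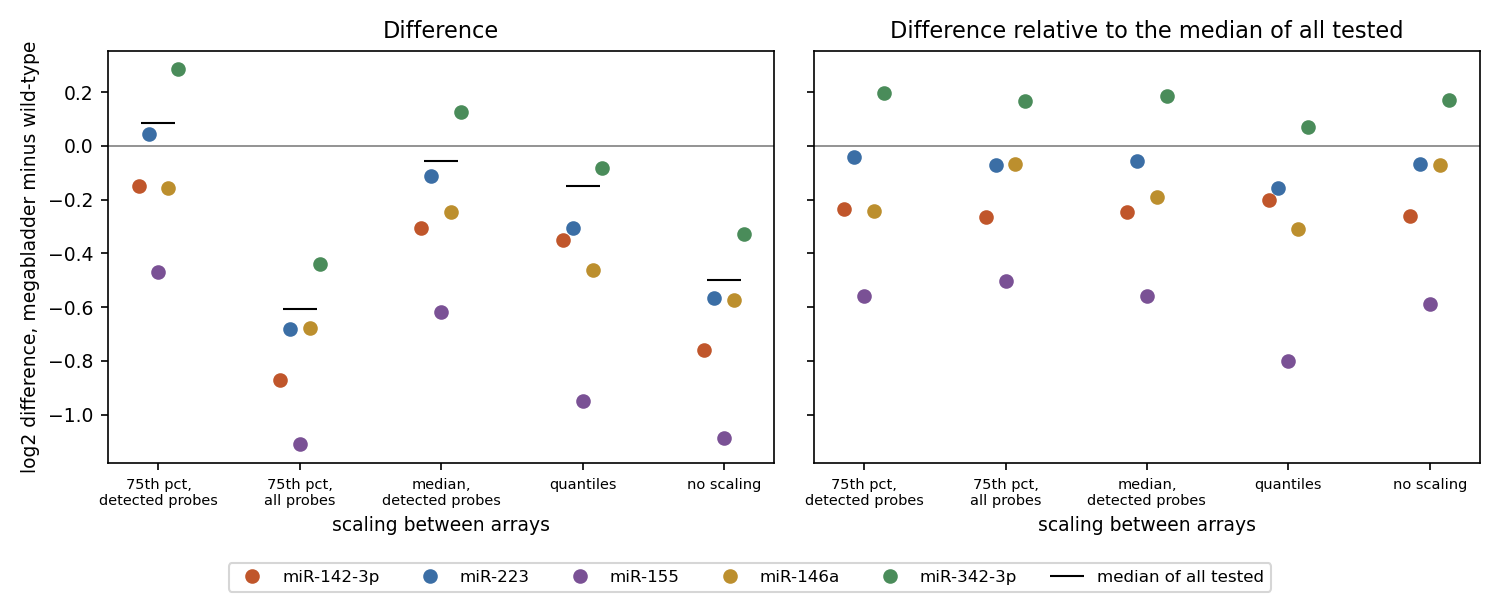
Log2 difference, megabladder minus wild-type, of the 5 leukocyte microRNAs tested under 4 scalings of the arrays and with none (left; black bars, the median of all 213 microRNAs) and the same minus that median (right). The points on the left follow the black bars, and on the right miR-155 is between -0.80 and -0.50 and miR-342-3p between 0.07 and 0.20.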

How the data were processed

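Total RNA (100 ng) carried the Cy3 label, per the labels' protocols. Per the file headers, the authors read each spot's intensity with Agilent Feature Extraction 10.7.3.1. The deposited intensity is background-subtracted and has no scaling between arrays. A value table that the authors deposited, also in intensity units, served as an alternative only, since names after a break in it matched their neighbour's signal; all 8 members stand before the break.

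Control and outlier spots (3.45% to 3.77%) were dropped, none of the spots used was saturated, and the spots of a probe were averaged. Signals were scaled to the 75th percentile over 292 probes found on all arrays and floored at 11.5 units (3.52 on the log2 scale), taken as the typical array's 1st percentile (the median of the 7) among probes found. A level is the mean over probes found on at least 3 arrays. The difference, megabladder minus wild-type, was fitted with limma 3.58.1 (lmFit, eBayes, R 4.3.3) and adjusted by Benjamini-Hochberg over 213 microRNAs. The fit was tested on simulated data with noise drawn separately for each microRNA and array. That simulation held no variation shared between microRNAs, so it cannot vouch for calls where whole arrays stand apart. Each array found 190 to 210 microRNAs, and the number of arrays limits the precision. All 7 arrays shared 1 slide and 1 scan. No pair looked like an array deposited more than once: the median difference over 21 pairs was at least 3.40 standard errors between spots. Same-numbered mice are separate animals.

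The members and lists were chosen with earlier results of these data known. All 8 members were named, list members by count with those tested, and the 2 nearest microRNAs in centred level. RefSeq sequences came from the GRCm38.p6 table; since the files use another build, coordinates are left out. Scaling, background, filter, floor, probe choice, test, replicate block and left-out arrays were varied. For normexp with an offset of 50, spot medians were used.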

Additional observations from a re-analysis of the deposited data

Results flagged for a closer look

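Among 44 groups of 4 values examined (each wild-type set, since the megabladder group is too small), 1 stood out, where chance alone flags about 1 in 20: the number of microRNAs found above background was 190 in wild-type mouse 4, against 204 to 206 in the other wild-type mice. Its gap to the nearest was 0.875 of the range, past Dixon's 95% critical value for 4 values. In that mouse 6 of the 8 leukocyte microRNAs were found, which is not the lowest count.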

How the results depend on the processing

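The number of members called stayed at 0 in every alternative except no scaling, which called 4 (adjusted p 0.0305 to 0.0483). The count over all microRNAs, 7, was 0 with the percentile over all probes, quantiles, total gene signal, normexp or a floor of 1 unit (at unadjusted p under 0.05: 96, 45, 31, 113 and 30 by limma), 2 with the median, 69 with no scaling, 4 with the all-array filter, 13 with a trend, 1 in the authors' table, 1 without wild-type mice 3 and 4 (chosen after seeing the data), and 0 to 19 leaving out single mice. Deviations of same-numbered mice from their group means correlated at r = -0.21, 0.0066 and 0.21 for mice 2, 3 and 4. So few values cannot decide whether arrays of the same number, which shared a slide column, vary together. A replicate block gave 28 calls over all microRNAs, against 0 without wild-type mouse 1 and with no block. The members' differences under the block were -0.16 (mmu-miR-142-3p), -0.14 (mmu-miR-146a), -0.57 (mmu-miR-155), 0.00081 (mmu-miR-223) and 0.34 (mmu-miR-342-3p), with no member called. Differences changed sign for mmu-miR-142-3p (normexp 0.0653, without wild-type mice 3 and 4 0.0093; all-probe percentile -0.87, single mice left out -0.34 to -0.04), mmu-miR-146a (normexp 0.18, single mice left out -0.29 to 0.0340), mmu-miR-155 (normexp 0.20; all-probe percentile -1.11, quantiles -0.95), mmu-miR-223 (all-probe percentile -0.68, median -0.11, quantiles -0.31, no scaling -0.57, brightest probe -0.0024, authors' table -0.22, single mice left out -0.0340 to 0.15) and mmu-miR-342-3p (all-probe percentile -0.44, quantiles -0.0812, no scaling -0.33; single mice left out 0.14 to 0.39). With no scaling mmu-miR-142-3p was -0.76, mmu-miR-146a -0.57 and mmu-miR-155 -1.09. The members' median of -0.15 became -0.68 (all-probe percentile), -0.35 (quantiles), -0.57 (no scaling), 0.20 (normexp), -0.31 (authors' table), 0.0093 (without wild-type mice 3 and 4) and -0.29 to 0.0340 (single mice left out). The cause was not tested. The count of members found on all arrays, 4, became 5 without megabladder mouse 3 and otherwise stayed. mmu-miR-155 was not tested under the all-array filter. Signal over background limits mmu-miR-142-5p, mmu-miR-146b, mmu-miR-150 and mmu-miR-155.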
